A study of Mus musculus with 28 samples.

Results

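The genes described here are 10 that encode the machinery by which mitochondria fuse and divide: *Mfn1*, *Mfn2*, *Opa1*, *Oma1*, *Yme1l1*, *Dnm1l*, *Fis1*, *Mff*, *Mtfr1* and *Gdap1*. They were taken by symbol from the deposited expression table, and all 10 of 10 were among its 12732 genes. RNA came from tibialis anterior (TA), a muscle of the lower hindlimb made largely of fast-twitch fibers, of 14 wt and 14 *mfn1,2* mice, and every mouse gave 1 library. By the study's methods, *mfn1,2* mice carry Cre at the *Myl1* gene, which is active in fast-twitch fibers, with 1 deleted and 1 floxed allele of both *Mfn1* and *Mfn2*, and a floxed mDendra reporter of mitochondria is part of the cross. The wt littermates carry 1 wild-type and 1 floxed allele of each gene, without the Cre in the genotype given. Cells of *mfn1,2* muscle that do not express *Myl1* therefore keep 1 floxed allele of each mitofusin, where wt cells have both alleles intact. The labels list 4 mice of each genotype at 4, 6 and 8 weeks of age and 2 at 10 weeks, both sexes were pooled, and the columns of the table carry genotype but not age, so mice of all ages were pooled.

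Mitochondria form a network that is shaped by opposing reactions of membranes. The mitofusins MFN1 and MFN2 are GTPases that tether and fuse outer membranes, and OPA1 is the GTPase that fuses inner membranes and holds cristae junctions. OPA1 is cut into long and short forms by the inner membrane proteases OMA1, which responds to stress, and YME1L1. Division is carried out by the cytosolic GTPase DRP1, encoded by *Dnm1l*, which is recruited to the outer membrane by receptors such as MFF and FIS1. MTFR1 is a mitochondrial protein linked to fission, and GDAP1, an outer membrane protein of neurons and other cells whose mutations cause Charcot-Marie-Tooth neuropathy, also favours fission. In muscle, loss of fusion is known to fragment mitochondria and to deplete their DNA.

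The promoter windows of the 3 fusion GTPases, which stood at nearly the same level in wt muscle, are shown as background. The levels came apart in *mfn1,2* muscle, where *Mfn1* and *Mfn2* are the targeted genes. A part of the promoters in this was not tested. RefSeq windows on build GRCm38.p6 hold 250 bases before and 50 bases after a transcription start, and 8 of the 10 genes had at least 1, with 13 windows in all. *Mtfr1* and *Gdap1* had no entry. The window of *Mfn1* is chr3:32529232-32529531 on the + strand, the first of 3 of *Mfn2* is chr4:147904860-147905159 on the − strand, and that of *Opa1* is chr16:29579084-29579383 on the + strand. All are written 5′ to 3′ on the gene's strand. Capitals mark matches, on either strand, to the NRF1 core CGCATGCG, the cAMP response element core TGACG, the GC box GGGCGG, the CCAAT box and the ETS core CCGGAAG.
Mfn1: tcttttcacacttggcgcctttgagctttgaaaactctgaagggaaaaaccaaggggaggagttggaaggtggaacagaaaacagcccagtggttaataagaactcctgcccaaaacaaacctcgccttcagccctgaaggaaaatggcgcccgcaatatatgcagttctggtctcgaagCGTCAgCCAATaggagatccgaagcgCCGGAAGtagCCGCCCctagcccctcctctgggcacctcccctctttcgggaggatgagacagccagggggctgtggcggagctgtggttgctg
Mfn2: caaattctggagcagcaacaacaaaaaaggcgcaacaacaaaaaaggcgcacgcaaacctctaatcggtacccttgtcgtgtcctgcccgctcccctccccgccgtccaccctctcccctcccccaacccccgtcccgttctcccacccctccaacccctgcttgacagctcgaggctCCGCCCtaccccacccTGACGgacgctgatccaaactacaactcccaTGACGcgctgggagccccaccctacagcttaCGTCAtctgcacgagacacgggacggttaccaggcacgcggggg
Opa1: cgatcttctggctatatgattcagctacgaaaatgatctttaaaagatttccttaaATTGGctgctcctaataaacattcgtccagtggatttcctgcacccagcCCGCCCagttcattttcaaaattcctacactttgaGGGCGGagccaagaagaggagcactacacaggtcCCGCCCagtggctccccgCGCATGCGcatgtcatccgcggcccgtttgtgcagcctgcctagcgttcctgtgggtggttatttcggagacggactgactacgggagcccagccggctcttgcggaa
The *Mfn1* window held 4 matches, 1 each of the cAMP element core, the CCAAT box, the ETS core and the GC box. The *Mfn2* window also held 4, of which 3 were the cAMP element core and 1 was the GC box. The *Opa1* window held 5, namely 1 CCAAT box, 3 GC boxes and the palindromic NRF1 core. Matches shared no bases in these 3 windows. Among all 32851 windows in the table, the NRF1 core was in 1.87%, the cAMP element core in 20.8%, the GC box in 35.7%, the CCAAT box in 37.4% and the ETS core in 8.86%. Of the 13 windows of the 10 genes, 1 held the NRF1 core, 8 the cAMP element core, 11 the GC box, 6 the CCAAT box and 5 the ETS core. The estrogen-related receptor motif TCAAGGTCA was in 0 of the 13 windows and in 0.423% of all windows. These are matches of letters, and several windows of a gene overlap.

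The values are a normalized expression signal that falls with gene length like FPKM or TPM, so levels of different genes are compared per length. Libraries were brought to a common scale through median ratios to the geometric means of genes, and the results are called scaled values. Mitochondrially encoded RNA took 49.4 to 71.3% of the summed deposited values in wt and 24.9 to 35.5% in *mfn1,2* libraries, without overlap. A scaling shifts all genes of a library alike. The median log2 difference of all 10819 genes tested, *mfn1,2* minus wt, was 0.03 on scaled values, 0.64 on values as deposited and 1.04 after setting all libraries to the same total. In clustering, 5 libraries stood apart from the rest of their genotype, the wt libraries WT6, WT8, WT9 and WT13 and the *mfn1,2* library DM8. The words rose and fell are used of genes with a limma *P* under 0.01 after Benjamini-Hochberg adjustment across all genes tested, and the bulk values cannot tell fewer cells of a type from less RNA per cell.

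Relative to other genes, both mitofusin genes fell in *mfn1,2* muscle, *Mfn1* far more than *Mfn2*, and *Opa1* did not pass the test. In wt libraries *Mfn1* had a lowest scaled value of 35.8, a median of 50.4 and a highest of 78.8. In *mfn1,2* libraries the lowest was 8.15, the median 13.6 and the highest 18.6. All 14 *mfn1,2* libraries were below all wt libraries, and WT8 and WT9, which stand apart, were the 2 lowest of wt. The mean fell from 53.0 ± 12.5 (SD, *n* = 14) to 12.9 ± 3.17 (SD, *n* = 14), to 24.3% of wt, with a log2 difference of −2.04 (95% confidence interval −2.30 to −1.78, adjusted *P* = 1.62e-14 from limma). Of all genes tested, 5.08% were lower in every *mfn1,2* than in every wt library. The value is given per gene and not per exon, and the floxed exon is not given in the sources used here, so the deletion itself was not read from it. Which cells gave the *Mfn1* signal that remained was not measured.

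*Mfn2*, whose product also tethers mitochondria to the endoplasmic reticulum, had a lowest scaled value of 39.7, a median of 48.1 and a highest of 57.1 in wt libraries. Those of *mfn1,2* mice had a lowest of 24.1, a median of 29.6 and a highest of 42.9. Of the 14 *mfn1,2* libraries, 13 were below all wt libraries, the exception being DM9, and 13 wt libraries were above all *mfn1,2* libraries. The mean fell from 48.0 ± 4.64 to 30.6 ± 5.03 (SD, *n* = 14 each), to 63.8% of wt, with a log2 fold change of −0.66 (95% confidence interval −0.81 to −0.51, adjusted *P* = 4.59e-09 from limma). On deposited values the difference of *Mfn2* was −0.02 (adjusted *P* = 0.886 from limma), and it turned to 0.40 after scaling to the same total and to 0.18 after scaling to *Actb*. *Mfn1* was lower under each of these scalings, at −1.40, −0.98 and −1.21. For both mitofusins the 2-sided permutation test of the scaled values gave 1e-05, the smallest *P* that 100000 resamples can give.

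*Opa1* ran from 39.0 to 52.9 with a median of 46.2 in wt libraries, and from 37.7 to 50.5 with a median of 41.2 in *mfn1,2* libraries. The genotypes overlapped, with 2 *mfn1,2* libraries below all wt libraries and 3 wt libraries above all *mfn1,2* libraries. The log2 fold change was −0.15 (95% confidence interval −0.26 to −0.05, adjusted *P* = 0.0117 from limma), short of the threshold over all genes, and the 2-sided permutation test of this gene alone gave *P* = 0.00226. Leaving out WT8, DM2 or DM11 brought the adjusted *P* from limma to 0.00350, 0.00829 and 0.00398. *Opa1* also passed as a fall without the 5 libraries that stand apart (−0.18, adjusted *P* = 0.00519 from limma), with upper quartile scaling (−0.22, adjusted *P* = 0.000209 from limma) and with no filter on low values (adjusted *P* = 0.00901 from limma). With the same total over nuclear genes *Opa1* did not pass (−0.008, adjusted *P* = 0.922 from limma). On deposited values the sign turned, with a log2 difference of 0.49. The sum of *Mfn1* and *Mfn2* was 101 ± 15.8 in wt mice and 43.5 ± 5.61 in *mfn1,2* mice (SD, *n* = 14 each). The highest *mfn1,2* library was at 56.2, below the lowest wt library at 79.9.

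**Figure D1:**
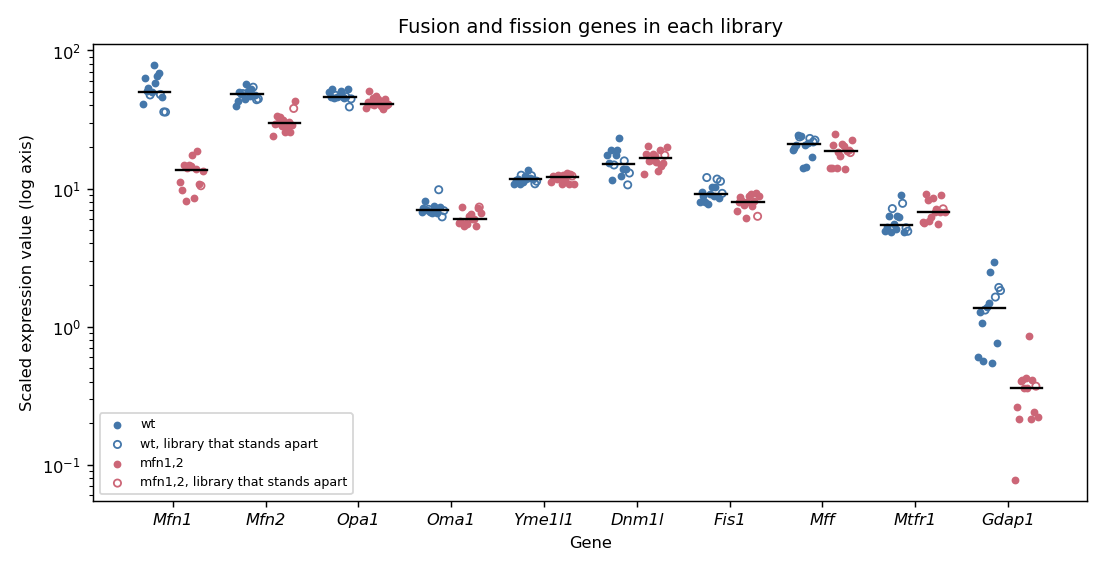
Scaled expression value (log axis) of the 10 genes in each of the 14 wt and 14 *mfn1,2* libraries. Points are libraries, open points are the 5 that stand apart, and black lines are medians; *Mfn1* is the gene whose genotypes do not overlap, and *Gdap1* is by far the lowest gene, at medians of 1.35 and 0.358.

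The 2 proteases that process OPA1 stood at low and narrow levels, and 1 of them fell on scaled values. *Oma1* was between 6.23 and 9.80 in wt libraries (median 7.01) and between 5.32 and 7.40 in *mfn1,2* libraries (median 6.02). The genotypes overlapped, although 8 of the 14 *mfn1,2* libraries were below all wt libraries. The log2 fold change was −0.22 (95% confidence interval −0.35 to −0.08, adjusted *P* = 0.00486 from limma), and it turned to 0.41 on deposited values, 0.82 with the same total and 0.60 with *Actb*. With the same total over nuclear genes *Oma1* did not pass (−0.08, adjusted *P* = 0.497 from limma). *Yme1l1* was between 10.8 and 13.5 in wt libraries (median 11.7) and between 10.8 and 12.96 in *mfn1,2* libraries (median 12.1). Its groups covered each other almost fully, and its log2 fold change was 0.02 (95% confidence interval −0.07 to 0.12, adjusted *P* = 0.676 from limma). *Yme1l1* had the smallest spread of the 10 genes, with a coefficient of variation of 6.63% in wt and 6.35% in *mfn1,2* muscle. The median over all genes tested was 23.0% and 20.2%.

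Of the fission genes, neither *Dnm1l* nor *Mff* passed the test, and *Fis1* fell by a small amount on scaled values. *Dnm1l* ran from 10.6 to 23.1 in wt libraries (median 15.0) and from 12.8 to 20.3 in *mfn1,2* libraries (median 16.6). Its groups overlapped, with 11 of 14 *mfn1,2* libraries above the wt median, and the log2 fold change was 0.12 (95% confidence interval −0.08 to 0.32, adjusted *P* = 0.283 from limma). *Mff*, the main receptor of DRP1 on mitochondria, ran from 14.01 to 24.2 in wt (median 21.1) and from 13.8 to 24.7 in *mfn1,2* libraries (median 18.5). The groups overlapped over nearly the whole range, and the log2 fold change was −0.16 (95% confidence interval −0.36 to 0.04, adjusted *P* = 0.154 from limma).

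*Fis1*, a small tail-anchored outer membrane protein, ran from 7.67 to 12.0 in wt (median 9.15) and from 6.08 to 9.21 in *mfn1,2* libraries (median 8.03). The groups overlapped, and the 3 highest wt libraries were WT13, WT6 and WT8, all of which stand apart. The log2 fold change was −0.25 (95% confidence interval −0.41 to −0.10, adjusted *P* = 0.00524 from limma), and it turned to 0.38 on deposited values, 0.79 with the same total and 0.57 with *Actb*. With the same total over nuclear genes it was −0.11 (adjusted *P* = 0.395 from limma), and without the 5 libraries that stand apart −0.14 (adjusted *P* = 0.0951 from limma). Leaving out WT6, WT8, WT13 or DM14 alone also moved the adjusted *P* from limma past the threshold, to 0.0102, 0.0102, 0.0106 and 0.0107.

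*Mtfr1* had the largest rise of the 10 genes without passing the test. Its scaled values ran from 4.83 to 8.93 in wt (median 5.41) and from 5.49 to 9.10 in *mfn1,2* libraries (median 6.75). All 14 *mfn1,2* libraries were above the wt median, yet 2 were above all wt libraries, WT5 being the highest of wt. The log2 fold change was 0.24 (95% confidence interval 0.04 to 0.44, adjusted *P* = 0.0355 from limma), and without WT5 it was 0.28 (adjusted *P* = 0.00830 from limma).

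*Gdap1* was the lowest of the 10 genes and fell in *mfn1,2* muscle. It ran from 0.542 to 2.93 in wt (median 1.35) and from 0.0774 to 0.852 in *mfn1,2* libraries (median 0.358). Of the *mfn1,2* libraries 13 were below all wt libraries, DM4 being the exception, and 10 wt libraries were above all *mfn1,2* libraries. The log2 fold change was −1.71 (95% confidence interval −2.19 to −1.24, adjusted *P* = 2.13e-07 from limma) with the pseudocount of 0.1, −0.80 with 1 and −1.99 with 0.01. Its mean of 0.343 in *mfn1,2* muscle was under the minimum of 0.5 that a gene needed to be tested, so it passed that filter through the wt libraries, where its mean was 1.41. *Gdap1* is known from nerve, and of 6 Schwann cell and nerve markers measured, 3 could be tested, of which 1 rose and 0 fell. Their summed level was 3.51 to 27.9 in wt and 7.96 to 43.1 in *mfn1,2* libraries, and its part in the *Gdap1* difference was not tested.

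Counted together, 5 of the 10 genes fell (*Mfn1*, *Mfn2*, *Oma1*, *Fis1* and *Gdap1*) and 0 rose by limma, where 24.9% of all genes tested fell and 28.2% rose. *Mfn1* and *Mfn2* are the genes targeted in these mice, and *Gdap1* passed the filter on low values through the wt libraries. Counts and medians that hold them are therefore no result about the machinery as a set. *Oma1* and *Fis1* are the others that fell. The largest rise of the 10, that of *Mtfr1*, had an unadjusted *P* of 0.0217 from limma and did not pass after adjustment. At a stricter call, named altered, with a *P* under 0.01 after Bonferroni adjustment and a change of more than 1 log2 unit, *Mfn1* and *Gdap1* passed, against 11.1% of all genes. The median log2 fold change of the 10 genes was −0.19, beside 0.03 over all genes tested. The counts turn with the scaling. On deposited values 6 of the 10 rose and 2 fell, where 62.3% and 4.95% of all genes did. With the same total it was 8 and 2, where 79.1% and 2.6% of all genes did, and with *Actb* 7 and 2, where 65.8% and 3.36% did. With the same total over nuclear genes 0 rose and 3 fell, where 34.9% and 16.6% of all genes did. *Mfn1* and *Gdap1* fell under each of these scalings.

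**Figure D2:**
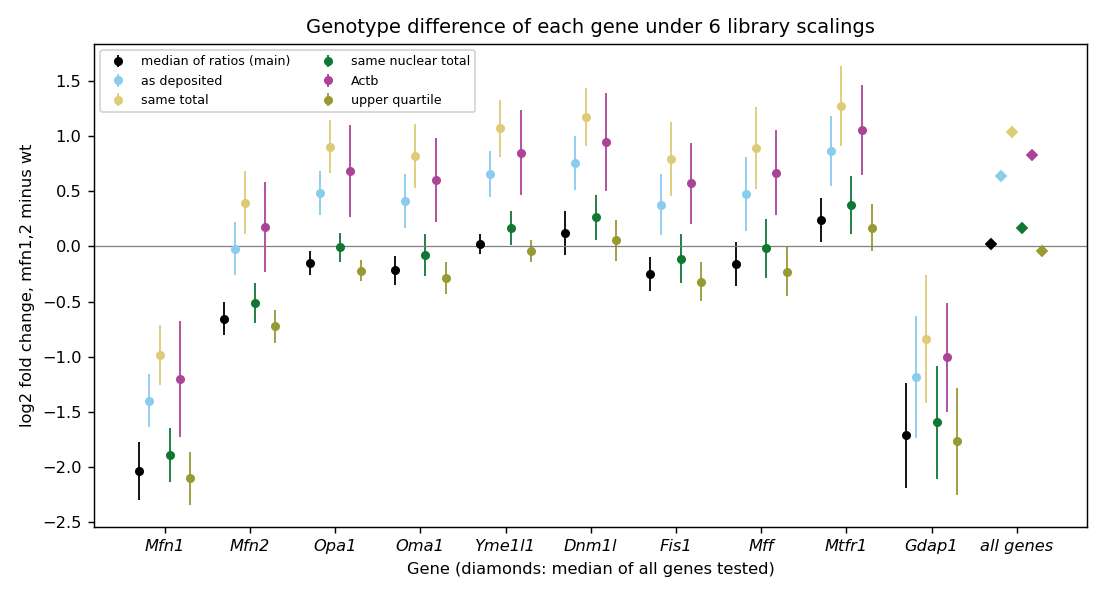
Log2 fold change of each gene, *mfn1,2* minus wt, with its 95% confidence interval from limma, under 6 ways of scaling the libraries; diamonds are the median of all genes tested. *Mfn1* and *Gdap1* lie below 0 throughout, *Mfn2* runs from −0.73 to 0.40, and the other 7 genes move with the median of all genes, which runs from −0.04 to 1.04.

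Ratios of a pair of genes within a library do not depend on how libraries are scaled, apart from the small pseudocount, and 6 were compared, each with a 2-sided permutation test (100000 resamples) and adjustment over the 6. The log2 ratio of *Mfn1* to *Mfn2* was −0.32 to 0.53 in wt and −1.87 to −0.46 in *mfn1,2* libraries. The groups did not overlap, and the mean ratio moved by −1.38 (standard error 0.14, adjusted permutation *P* = 6e-05), so *Mfn1* was reduced more than *Mfn2*. The log2 ratio of *Mfn2* to *Opa1*, the outer against the inner membrane GTPase, was −0.32 to 0.28 in wt and −0.79 to 0.07 in *mfn1,2* libraries. It overlapped between genotypes and moved by −0.51 (standard error 0.074, adjusted permutation *P* = 6e-05), which places *Mfn2* lower relative to *Opa1* whatever the scaling.

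Among the proteases, the log2 ratio of *Oma1* to *Yme1l1* was −0.93 to −0.34 in wt and −1.15 to −0.69 in *mfn1,2* libraries. It moved by −0.24 (standard error 0.060, adjusted permutation *P* = 0.00126), with overlap between the groups. The ratio of the fission to the inner fusion GTPase, *Dnm1l* to *Opa1*, was −1.97 to −1.14 in wt and −1.62 to −1.04 in *mfn1,2* libraries. It moved by 0.27 (standard error 0.084, adjusted permutation *P* = 0.00555), also with overlap, and by 0.23 (adjusted permutation *P* = 0.0495) without the libraries that stand apart. Leaving out WT4, DM5 or DM9 gave adjusted permutation *P* values of 0.0107, 0.0101 and 0.0104. The ratio of *Mff* to *Fis1*, both receptors of DRP1, moved by 0.09 (standard error 0.10, adjusted permutation *P* = 0.378), and that of *Dnm1l* to *Mff* by 0.28 (standard error 0.14, adjusted permutation *P* = 0.0715). Neither of these last pairs differed beyond the spread between libraries.

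**Figure D3:**
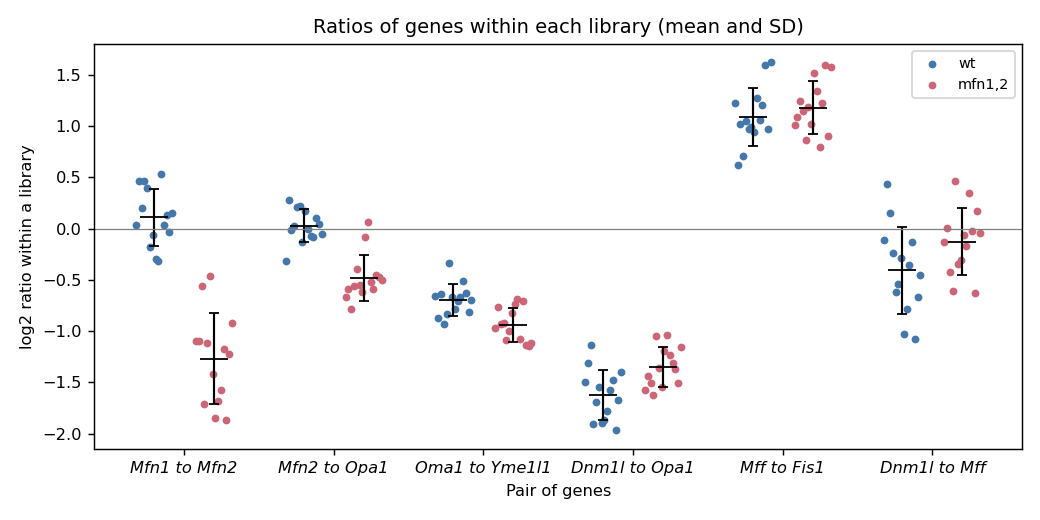
Log2 ratio within a library of 6 pairs of genes; points are the 14 wt and 14 *mfn1,2* libraries, and bars are the mean and SD. *Mfn1* to *Mfn2* separates the genotypes fully, with means of 0.11 and −1.27, while *Mff* to *Fis1* has means of 1.09 and 1.18.

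All 45 pairs of the 10 genes were then described without a test and without a pseudocount. In 8 pairs the genotypes did not overlap, and each of these holds *Mfn1*, against every other gene but *Gdap1*. The mean log2 ratio of *Mfn1* moved between −1.39 against *Mfn2* and −2.29 against *Mtfr1*, and by −0.01 against *Gdap1*. *Mfn2* was lower relative to 7 of the 9 other genes, by 0.40 (*Fis1*) to 0.90 (*Mtfr1*) on the log2 scale, and higher relative to *Mfn1* and *Gdap1*. *Mtfr1* was higher relative to all 9 others and *Dnm1l* to 8 of 9. Such counts restate the order of the log2 fold changes of the single genes and add no evidence to them. Among the 7 genes other than *Mfn1*, *Mfn2* and *Gdap1*, all 21 pairs overlapped, and the largest shift was 0.50, between *Fis1* and *Mtfr1*.

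**Figure D4:**
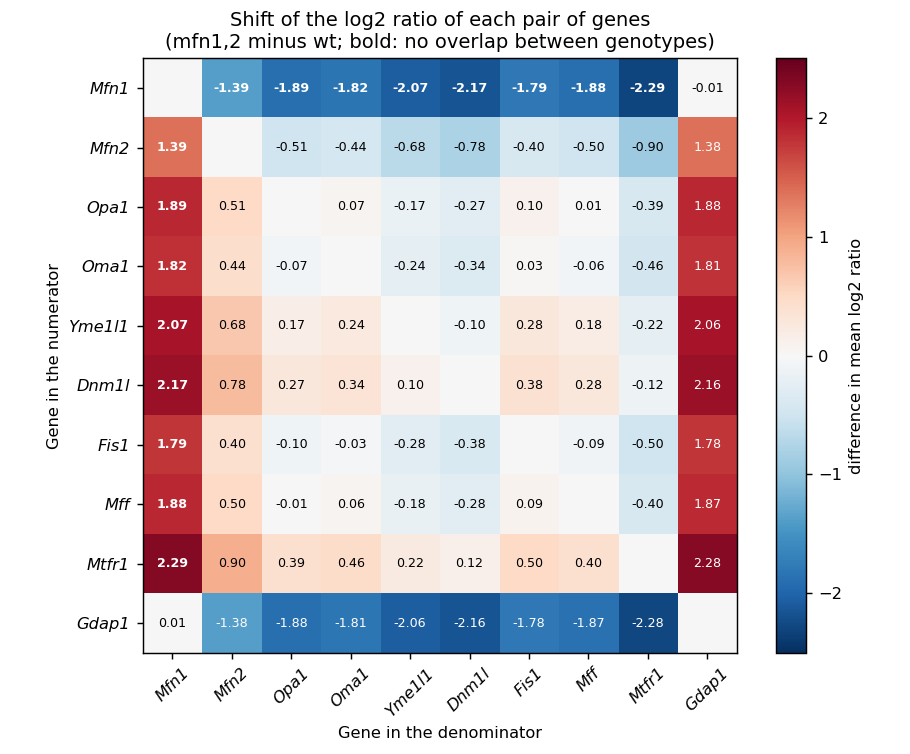
Difference between genotypes (*mfn1,2* minus wt) in the mean log2 ratio of each pair of the 10 genes, row gene over column gene; bold numbers mark pairs in which no library of one genotype overlaps the other. The row of *Mfn1* holds 8 bold values from −1.39 to −2.29, and the block of the 7 genes other than *Mfn1*, *Mfn2* and *Gdap1* stays within 0.50 of 0.

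The order of the levels changed with the loss of *Mfn1*. In wt muscle *Mfn1*, *Mfn2* and *Opa1* stood together at mean scaled values of 53.0, 48.0 and 47.0. *Mfn1* was above *Mfn2* in 9 of 14 libraries and *Mfn2* above *Opa1* in 7 of 14, so these neighbours did not differ beyond their spread. *Mff* (20.4) and *Dnm1l* (15.5) came next and did not differ beyond their spread either. *Yme1l1* (11.7), *Fis1* (9.50), *Oma1* (7.22), *Mtfr1* (5.96) and *Gdap1* (1.41) followed, each differing from the next by more than the SD of their log2 ratio. In *mfn1,2* muscle *Opa1* was first at 42.3, above *Mfn2* (30.6) in 13 of 14 libraries. *Mfn1* had dropped to the fifth place at 12.9, and its neighbour *Yme1l1* (11.9) did not differ from it beyond their spread. *Fis1* (7.94), *Mtfr1* (7.01) and *Oma1* (6.20) lay close together there, and *Mtfr1* was above *Oma1* in 11 of 14 libraries, where *Oma1* had been above *Mtfr1* in 12 of 14 in wt. As a share of the summed level of the 10 genes, *Mfn1* went from 23.9 ± 4.07% to 8.36 ± 2.03%, *Mfn2* from 21.9 ± 1.23% to 19.8 ± 2.33% and *Opa1* from 21.5 ± 1.93% to 27.5 ± 1.74% (SD, *n* = 14 each). Shares of the other genes rise where that of *Mfn1* falls, since they add to the whole. The 5 fission genes summed to scaled values of 52.8 ± 5.94 in wt mice and 50.3 ± 5.52 in *mfn1,2* mice (SD, *n* = 14 each).

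Within a genotype, *Mfn1* varied more than *Mfn2* and *Opa1*. The coefficient of variation of *Mfn1* was 23.7% in wt and 24.6% in *mfn1,2* muscle, that of *Mfn2* 9.68% and 16.4%, and that of *Opa1* 7.61% and 8.49%. The largest was that of *Gdap1*, at 50.5% and 52.0%. Whether *Mfn1* followed *Mfn2*, or either followed the summed level of 29 fibroblast, endothelial and macrophage markers, was compared on log2 scaled values in 6 relations with permutation *P* values. Among the 10 wt libraries that do not stand apart, *Mfn1* and *Mfn2* had a Pearson *r* of 0.71 (permutation *P* = 0.0223, adjusted over the 6 relations 0.111) and a Spearman coefficient of 0.61 (permutation *P* = 0.0668, adjusted 0.200). Without the 2 libraries farthest from the median of *Mfn1*, *r* was 0.17, so among these 10 the value of *r* depends on those libraries. Leaving them out also narrows the range of *Mfn1*, which can itself lower *r*. With all 14 wt libraries *r* was 0.59 (permutation *P* = 0.0243, adjusted 0.0628), and 0.40 without the 2 farthest. Among the 13 *mfn1,2* libraries without DM8, the same *r* was −0.00 (permutation *P* = 0.998) and the Spearman coefficient was −0.08 (permutation *P* = 0.793).

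The markers and *Mfn1* had an *r* of −0.56 (permutation *P* = 0.0939, adjusted 0.188) and a Spearman coefficient of −0.28 (permutation *P* = 0.427, adjusted 0.550) in those wt libraries, with *r* at −0.00 without the 2 farthest. In *mfn1,2* libraries without DM8 *r* was −0.58 (permutation *P* = 0.0369, adjusted 0.111), the Spearman coefficient was −0.65 (permutation *P* = 0.0194, adjusted 0.117) and *r* without the 2 farthest was −0.64. With all 14 libraries, the wt value was −0.72 (permutation *P* = 0.0033, adjusted 0.0198) and the *mfn1,2* value −0.57 (permutation *P* = 0.0314, adjusted 0.0628). On deposited values these 2 were −0.17 and −0.54. The markers and *Mfn2* had an *r* of −0.43 in wt (permutation *P* = 0.211) and 0.05 in *mfn1,2* libraries (permutation *P* = 0.869) without the libraries that stand apart. None of the 6 relations passed an adjusted permutation *P* of 0.01, with or without these libraries.

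**Figure D5:**
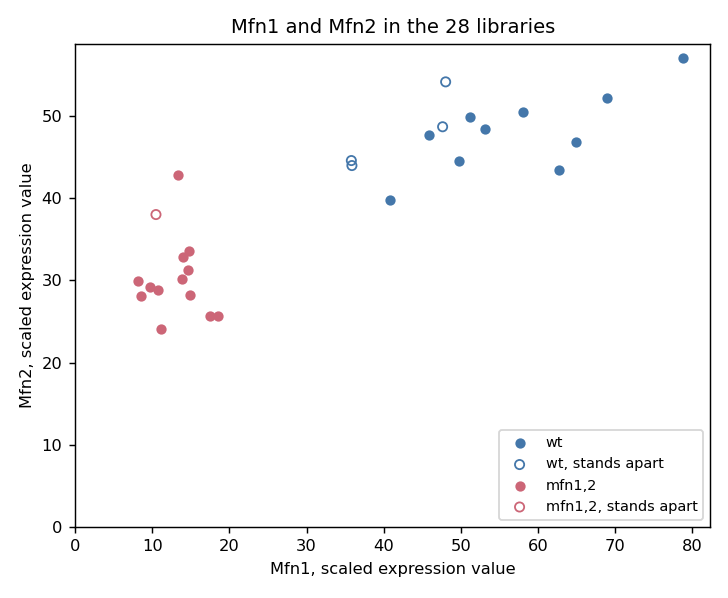
Scaled value of *Mfn2* against that of *Mfn1* in the 28 libraries; each point is 1 library and open points are those that stand apart. The genotypes are separate on the *Mfn1* axis (35.8 and above in wt, 18.6 and below in *mfn1,2* libraries) and meet on the *Mfn2* axis, where DM9 lies at 42.9 and the lowest wt library at 39.7.

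The genes whose levels moved most like a member were sought among the 4809 genes whose mean was 5 or more, by the lower of the Pearson correlations over the 14 wt and over the 14 *mfn1,2* libraries. These are the highest of many values, and the libraries share their scaling. For *Mfn1* they included *Specc1l* (0.82) and *Svip* (0.69). For *Mfn2* they were *Mapkapk2*, a kinase downstream of p38 (0.70), *Ank*, a transporter of pyrophosphate (0.63), and *Dlg1*, a scaffold protein (0.62). For *Mtfr1* they were *Rab1b* (0.72) and *Rab21* (0.71), small GTPases of membrane traffic, and *Ulk1*, the kinase that starts autophagy (0.68).

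The rest of the pathway was read from 6 lists of genes that act beside these 10. One entry of these lists, *1700021F05Rik*, is named *Mtres1* in RefSeq, is known for mitochondrial transcription and is no subunit of the complexes listed, so it is left out of the counts; it rose by 0.83 on the log2 scale. Of the other 48 genes tested 17 rose and 5 fell, where 28.2% of all genes tested rose and 24.9% fell, and their median log2 fold change was 0.17, beside 0.03 over all genes tested. On deposited values 45 of the 48 rose and 0 fell, where 62.3% of all genes rose and 4.95% fell, with a median of 0.79 beside 0.64.

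Of 8 other fission factors 3 rose and 1 fell, with a median of 0.17, beside the 28.2% and 24.9% of all genes. On deposited values 8 of 8 rose, where 62.3% of all genes rose and 4.95% fell. *Dnm2*, a dynamin known for pinching off endocytic vesicles, rose from 18.7 ± 4.27 to 45.2 ± 8.08 (SD, *n* = 14 each), by 1.29 on the log2 scale (adjusted *P* = 1.21e-11 from limma). All *mfn1,2* libraries were above all wt libraries for *Dnm2* and for *Spire1*, an actin nucleator (log2 fold change 0.75), and 6.15% of all genes tested were so. *March5*, a ubiquitin ligase of the outer membrane, rose by 0.45. *Mief2*, a DRP1 receptor, fell by 0.25 on scaled values and turned to 0.38 on deposited values. Of 4 fusion factors and lipid partners 2 rose, *Msto1* (0.72) and *Slc25a46* (0.25), an outer membrane protein linked to fusion. All 4 rose on deposited values.

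On scaled values, genes of cristae held both rises and falls, and genes of inner membrane scaffolds held rises but no falls. Of 10 cristae and MICOS genes 5 rose and 2 fell, with a median log2 fold change of 0.30. Over all genes tested 28.2% rose and 24.9% fell. On deposited values 10 of the 10 rose, where 62.3% of all genes did. The rises were led by *2410015M20Rik*, which RefSeq names *Micos13* (0.68), *Mtx2* (0.54) and *Samm50* (0.44). *Mtx2* and *Samm50* encode parts of the machinery that inserts outer membrane proteins. *Apoo*, which encodes a MICOS subunit, fell by 0.26 on scaled values and turned to 0.38 on deposited values. Of 12 scaffold and protease genes 5 rose and 0 fell, with a median of 0.24, and 11 of 12 rose on deposited values. *Chchd10*, a small protein of the intermembrane space, rose from 190 ± 56.1 to 664 ± 104 (SD, *n* = 14 each), by 1.85 on the log2 scale (adjusted *P* = 3.23e-13 from limma). *Afg3l2*, a subunit of the matrix-facing m-AAA protease, rose by 1.03, and *Phb2*, a prohibitin that holds inner membrane proteases, by 0.72. *Chchd10*, *Afg3l2* and *Phb2* did not overlap between genotypes, where 6.15% of all genes tested were higher in every *mfn1,2* than in every wt library. *Letm1*, an ion exchanger, rose by 0.67 with overlap.

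Factors that mark mitofusins and factors that move mitochondria follow, beside the 28.2% of all genes that rose and the 24.9% that fell. Of 7 genes of the ubiquitin system of mitofusins 1 rose, *Mul1*, a ligase of the outer membrane (log2 fold change 0.26), and 6 did not pass, *Pink1* among them. Of 7 transport adaptors 1 rose and 2 fell. *Trak2*, which links mitochondria to motors, rose by 0.29, while its relative *Trak1* fell by 0.29 and *Rhot2*, whose product is an outer membrane GTPase that binds the TRAK adaptors, fell by 0.57. The falls of *Trak1* and *Rhot2* turned to 0.34 and 0.065 on deposited values, where 7 of 7 genes of the ubiquitin system and 5 of 7 adaptors rose. Of all genes tested, 62.3% rose and 4.95% fell on those values.

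Markers of other cells moved with genotype beside these results. Of 12 fast-twitch fiber markers 9 fell and 1 rose, and their summed scaled level was 30412 to 72065 in wt and 25961 to 44119 in *mfn1,2* libraries, so the defining markers of the labelled muscle were present in both. *Myl1*, whose locus drives the Cre, went from 5402 ± 1226 to 2243 ± 463 (SD, *n* = 14 each), a difference of −1.26 on the log2 scale (adjusted *P* = 1.06e-10 from limma). Of 8 slow-twitch markers 5 rose and 0 fell, with sums of 48.7 to 220 in wt and 101 to 505 in *mfn1,2* libraries. Of 10 endothelial markers 7 fell, with sums of 80.7 to 124 and 57.8 to 78.9, and 4 of 10 fibroblast and 6 of 7 macrophage markers tested also fell. Over all genes tested 28.2% rose and 24.9% fell. On deposited values, 3 fast-twitch markers rose and 5 fell, and all 8 slow-twitch markers rose, and with the same total 5 fast-twitch markers rose and 3 fell. Also on deposited values, 3 endothelial markers rose and none fell, 1 fibroblast marker rose and none fell, and 0 macrophage markers passed the test. Of all genes tested, 62.3% rose and 4.95% fell on deposited values, and 79.1% and 2.6% did with the same total. The part of these cells in the differences of the 10 genes was not tested.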

How the data were processed

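Total RNA of TA muscle from 28 mice was prepared with a stranded kit and sequenced as single reads of 75 bases. Trim Galore, HISAT2, featureCounts, DESeq2 and the mouse build mm9 are listed in the submitters' processing notes, with no versions. The deposited table holds an expression signal per gene that the authors call normalized by DESeq2; the lowest values fall with gene length (slope −1.02 on log-log axes over 262 genes), as in FPKM or TPM. Depth is unknown, since whole reads could not be recovered, and precision rests on the 14 libraries per genotype, 1 per mouse.

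Libraries were scaled by the median of ratios over 11693 genes above 0 in all. Both genotypes were fitted by limma 3.58.1 (R 4.3.3) on log2(value + 0.1), so fold changes of low genes are understated, for 10819 genes with a mean of at least 0.5. The steps were tested on simulated data in which few genes changed, in equal numbers up and down. That run cannot tell how the scaling behaves where many genes differ, as here. Single genes, ratios and relations used permutation tests in Python 3.11.15 with numpy 2.4.6. The 10 genes, the lists and the tests were chosen with earlier results of these data known. Named are the 10 genes, up to 4 passing genes per list with the largest change and the largest against them, and 3 genes most like *Mfn1*, *Mfn2* and *Mtfr1*. Of the genes these rules name, 1 most like *Mfn1* is not reported here. Other scalings, pseudocounts, filters, robust variance and leaving out libraries were tried. No gene in the table overlaps a member in GENCODE M21.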

Additional observations from a re-analysis of the deposited data

How the results depend on the processing

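The number of the 10 genes that rose was 0, and 6 on deposited values, 8 with the same total and 7 with *Actb*; the number that fell was 5, and 2, 2 and 2 in these, 3 with the same total over nuclear genes, 6 with the upper quartile and 6 with no filter, where *Opa1* joined, and 4 with a minimum mean of 5, where *Gdap1* was not tested. Without the 5 libraries that stand apart it was again 5, with *Opa1* in and *Fis1* out. Of all genes tested, 28.2% rose on scaled values, 62.3% on deposited values, 79.1% with the same total and 65.8% with *Actb*. In this order 24.9%, 4.95%, 2.6% and 3.36% fell, and 16.6% fell with the same total over nuclear genes. With the upper quartile 3042 of 10832 genes fell, with no filter 3197 of 12732, and 1155 of 4809 with a minimum mean of 5. Without the 5 libraries 2565 of 10743 genes fell. The number altered was 2 (*Mfn1* and *Gdap1*), and 1 on deposited values, 3 other genes with the same total, all upward (*Dnm1l* 1.17, *Mtfr1* 1.28 and *Yme1l1* 1.07), 0 with *Actb*, 1 with a pseudocount of 1, 1 with a minimum mean of 5 and 1 without the 5 libraries that stand apart. With the same total, 5217 of all 10930 genes tested were altered, 5107 of them upward. Altered were 1205 of 10819 on scaled values, 2701 of 10871 on deposited values and 2603 of 10877 with *Actb*. With a pseudocount of 1 it was 836 of 10819, and 617 of 4809 with a minimum mean of 5. Without the 5 libraries it was 1151 of 10743. Leaving out 1 library at a time gave 0 to 1 that rose (1 without WT5), 4 to 6 that fell and 2 to 2 altered, and a difference of 0.25 to 0.31 for *Dnm1l* to *Opa1*. Of the 10797 to 10835 genes tested in these runs, 2936 to 3109 rose, 2615 to 2780 fell and 1147 to 1274 were altered.

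Signs turned as follows. On deposited values, the same total and *Actb*, in this order, the log2 fold change was 0.49, 0.90 and 0.68 for *Opa1*, 0.41, 0.82 and 0.60 for *Oma1*, 0.38, 0.79 and 0.57 for *Fis1*, 0.48, 0.89 and 0.67 for *Mff*, 0.38, 0.80 and 0.58 for *Mief2*, 0.38, 0.79 and 0.57 for *Apoo*, 0.065, 0.48 and 0.26 for *Rhot2*, and 0.34, 0.76 and 0.54 for *Trak1*. *Mfn2* turned to 0.40 with the same total and 0.18 with *Actb*, and *Yme1l1* to −0.044 with the upper quartile. These scalings move all genes alike, by a median of −0.04 to 1.04. The related genes were put through the alternatives after the data were seen, and 4 of the 19 named turned sign. On deposited values, *r* of the markers and *Mfn2* in wt was 0.47 (permutation *P* = 0.093) and that of *Mfn1* and *Mfn2* in *mfn1,2* libraries 0.0032 (permutation *P* = 0.991). Without the libraries that stand apart, *Dnm1l* to *Opa1* moved by 0.23 (adjusted permutation *P* = 0.0495); the cause was not tested. Changes of 5 of the 6 ratios kept their direction and side of the threshold in every alternative run.

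No paired analysis was possible because the columns carry none of the labels' replicate numbers. The p-values take mice of all ages as replicates, and depth is unknown, so low genes such as *Gdap1* have no counting interval.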
